A study of Rattus norvegicus with 8 samples.

Results

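Sinusoidal endothelial markers are genes read as a sign of the endothelial cells that line the liver sinusoids, and 10 of them were followed here: Stab1, Stab2, Lyve1, Clec4g, Fcgr2b, Kdr, Flt1, Tek, Pecam1 and Vwf. Probes were taken from the rat array by the gene name that its design gives them, control spots left out. Of 45598 probes on 58717 spots, 11 probes on 20 spots carried the name of 8 of the 10 genes. Stab1 and Clec4g had no probe under their own gene name, and 1 probe each was found for them through the design's description of an Ensembl transcript, which makes 13 probes for 10 genes.

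RNA came from cells cut by laser microdissection (LMD) from hematoxylin-stained frozen sections of F344 rat livers, and was hybridised to 1-colour Agilent arrays. They comprised 2 samples of mature hepatocytes (MHs) from control recipients, 3 samples of small hepatocyte-like progenitor cell (SHPC) clusters from control recipients, and 3 samples of SHPC clusters from recipients transplanted with bone marrow-derived mesenchymal cells (BM-MCs). By the methods, all recipients had been given retrorsine, which blocks hepatocyte division, and a partial hepatectomy (Ret/PH), so the MHs too came from treated livers, and the methods give a single time of harvest after transplantation, while the labels state no age and no time. The labels place the MHs in control livers and were followed here, although a passage of the study's text can be read as placing them in transplanted livers. The labels give every sample as DPPIV+, whereas the methods describe the recipients as female DPPIV- rats and the marrow donors as male DPPIV+ rats, and no sample is tied to an animal, so the p-values rest on differences among samples of a group that could be technical.

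Sinusoidal endothelial cells form a fenestrated lining without a continuous basement membrane, through which plasma reaches the hepatocytes. They clear waste macromolecules and immune complexes from the blood with scavenger and Fc receptors, and they respond to vascular endothelial growth factors and angiopoietins. In regenerating liver they are known as a source of signals to hepatocytes, among them Wnt ligands and R-spondins. A microdissected hepatocyte area contains the sinusoids that run through it, so none of these samples was a purified cell type. In such samples, fewer cells of a type and less RNA per cell cannot be told apart.

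Of the 60-base probes, 6 are shown first. The Stab1 and Clec4g probes are those found only through the description, the Stab2 and Flt1 probes are 1 of the 2 that each gene has, and the Vwf probes are a pair on 1 transcript that gave different results. They are written as the design gives them, with no letters marked, and their coordinates are those of the design, whose file headers name the rn4 assembly.
Stab1 (A_44_P1060432, chr16:6567756-6568150, minus strand): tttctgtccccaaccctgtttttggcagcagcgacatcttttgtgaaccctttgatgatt
Clec4g (A_64_P102734, chr12:2416879-2416938, plus strand): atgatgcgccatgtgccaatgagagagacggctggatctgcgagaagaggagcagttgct
Stab2 (A_44_P1085734, chr7:23475318-23475377, minus strand): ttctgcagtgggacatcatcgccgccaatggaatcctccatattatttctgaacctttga
Flt1 (A_64_P201730, chr12:7957094-7957153, plus strand): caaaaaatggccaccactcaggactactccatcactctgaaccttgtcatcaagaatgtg
Vwf (A_43_P21694, chr4:161759938-161759997, plus strand): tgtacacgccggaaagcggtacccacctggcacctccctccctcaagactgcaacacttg
Vwf (A_64_P114913, chr4:161854554-161854613, plus strand): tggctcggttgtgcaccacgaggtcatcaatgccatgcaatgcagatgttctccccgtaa
The interval of the Stab1 probe is longer than its 60 bases. By the design, the first Vwf probe starts at base 1278 of the transcript and the second at base 8595. The Kdr probe has no genome position in the design. Whether the probes lie in coding or untranslated exons was not determined, since no annotation of that assembly was used.

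Values below are log2 levels relative to the 75th percentile of the sample's own array, so that 0 is the level of that percentile and a difference of 1 is a doubling. Levels of different probes cannot be set against each other on an array. The 8 arrays lay on 1 slide in 2 sets of 4. The first set held both MH samples and control SHPC replicates 1 and 2. The second held all 3 BM-MC samples together with control SHPC replicate 3. No spot was saturated, and the share of spots well above background was 57.0% to 61.5%. Of the hepatocyte transcripts, Tf (transferrin) lay between 7.54 and 7.99 and Ttr (transthyretin) between 7.52 and 7.95, and both were well above background on every array with marks for them.

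The endothelial markers were also measurable in every group. Of the 13 probes, 11 were well above background on every array with marks for them. The Flt1 probe A_64_P201730 was well above background on 5 of 7 arrays, and Flt1 A_43_P12015 on 0 of 7 arrays, so it was not tested. The remaining 12 probes were tested with limma in a fit over 23111 probes, with Benjamini-Hochberg adjustment over all of them. No marker gene passed an adjusted p of 0.05 in any of the 3 comparisons, whereas the intervals of several genes in the comparisons with control SHPCs lay above 0 before adjustment.

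**Figure D1:**
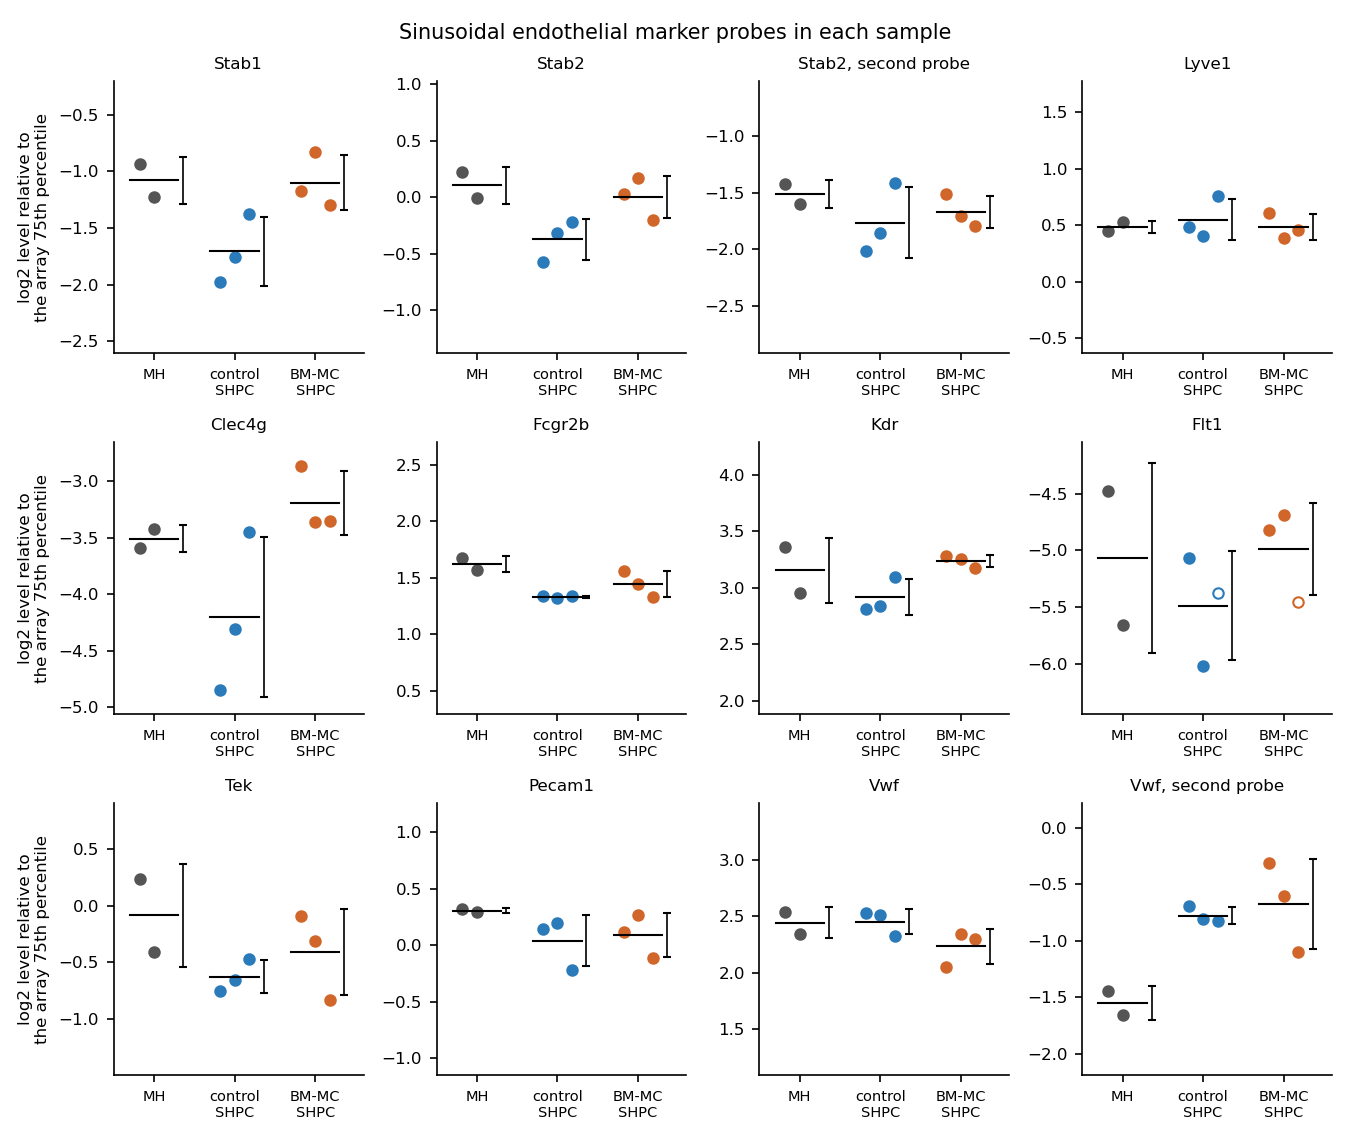
Log2 levels of the 12 tested marker probes in each sample (vertical axis, relative to the 75th percentile of the array; every panel spans the same number of log2 units). Points are samples in the order of their replicate numbers, lines are group means, bars beside them are ± 1 SD, and open points were not well above background (control SHPC replicate 2 has no such mark for most probes). For Stab1 the 3 control SHPC samples, between -1.98 and -1.38, lie below all other samples, and for the second Vwf probe the 2 MH samples, at -1.45 and -1.66, lie below all others.

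The first group of markers comprises receptors by which sinusoidal endothelial cells take up material from blood. Stab1 (stabilin-1, a scavenger receptor that macrophages also carry) was at -0.93 and -1.23 in MHs. It was at -1.98, -1.75 and -1.38 in control SHPCs and at -1.17, -0.83 and -1.30 in SHPCs with BM-MCs. Every control SHPC sample was below every sample of the other groups. The difference was 0.60 between the SHPC groups, with BM-MCs minus control (95% interval 0.12 to 1.09, adjusted p = 0.25 from limma) and 0.63 between MHs and control SHPCs (0.11 to 1.14, adjusted p = 0.20). Between MHs and SHPCs with BM-MCs it was 0.02 (-0.50 to 0.54).

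Stab2 (stabilin-2, which clears hyaluronan) had 2 tested probes. The brighter one, A_44_P400346, was at 0.22 and -0.01 in MHs, at -0.57, -0.32 and -0.22 in control SHPCs, and at 0.03, 0.17 and -0.20 in SHPCs with BM-MCs. Control SHPCs were again the lowest 3 samples, although control SHPC replicate 3 was close to BM-MC replicate 3. Compared with control SHPCs, the level differed by 0.37 in SHPCs with BM-MCs (0.0047 to 0.74, adjusted p = 0.30 from limma) and by 0.48 in MHs (0.08 to 0.87, adjusted p = 0.20). The other probe, whose sequence is shown above, was at -1.42 in control SHPC replicate 3, the highest of its 8 values, and its groups overlapped in all comparisons. Its differences from control SHPCs were 0.09 with BM-MCs (-0.35 to 0.54) and 0.25 in MHs (-0.21 to 0.71).

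Clec4g (LSECtin, a C-type lectin of sinusoidal endothelium) was at -3.59 and -3.42 in MHs, at -4.85, -4.31 and -3.45 in control SHPCs, and at -2.87, -3.36 and -3.35 in SHPCs with BM-MCs. The BM-MC samples were the highest 3 of the 8, and the control SHPC samples spread over 1.40 log2 units. SHPCs with BM-MCs differed from control SHPCs by 1.01 (0.13 to 1.88, adjusted p = 0.26 from limma), the largest in size of the 10 genes in that comparison. The difference lay between 0.68 and 1.38 with single samples left out. The difference between MHs and control SHPCs was 0.69 (-0.19 to 1.57), or 0.37 to 1.07 with single samples left out. That between MHs and SHPCs with BM-MCs was -0.32 (-1.20 to 0.56), or -0.40 to -0.15 with single samples left out.

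Fcgr2b (the inhibitory Fc gamma receptor, which removes small immune complexes in the sinusoid) was measured by a probe that is spotted 10 times. Levels were 1.67 and 1.57 in MHs, 1.34, 1.32 and 1.33 in control SHPCs, and 1.56, 1.45 and 1.33 in SHPCs with BM-MCs. Both MH samples were above all others, and the control SHPC samples spanned 0.02 log2 units. MHs differed from control SHPCs by 0.29 (0.02 to 0.57, adjusted p = 0.24 from limma) and from SHPCs with BM-MCs by 0.18 (-0.10 to 0.45, adjusted p = 0.53). The difference between the SHPC groups was 0.12 (-0.15 to 0.38).

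Lyve1 (a hyaluronan receptor of sinusoidal and lymphatic endothelium) showed no separation of the groups. Its 8 levels ran from 0.38 in BM-MC replicate 2 to 0.76 in control SHPC replicate 3. Group means were 0.48 ± 0.06 (SD, n = 2) in MHs, 0.55 ± 0.18 (SD, n = 3) in control SHPCs and 0.48 ± 0.11 (SD, n = 3) in SHPCs with BM-MCs. The interval of the difference was -0.40 to 0.26 between the SHPC groups, -0.40 to 0.27 between MHs and control SHPCs, and -0.34 to 0.34 between MHs and SHPCs with BM-MCs.

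The second group holds the receptors for endothelial growth factors. Kdr (VEGF receptor 2, the main signalling receptor for VEGF-A) was at 3.36 and 2.95 in MHs, at 2.81, 2.84 and 3.10 in control SHPCs, and at 3.28, 3.26 and 3.17 in SHPCs with BM-MCs. Each BM-MC sample was above each control SHPC sample. MH replicate 1 was above all BM-MC samples, and MH replicate 2 lay within the range of the control SHPC samples. The difference with BM-MCs was 0.32 (0.02 to 0.61, adjusted p = 0.28 from limma). MHs differed from control SHPCs by 0.24 (-0.14 to 0.61), by 0.03 without MH replicate 1 and by 0.44 without MH replicate 2, and from SHPCs with BM-MCs by -0.08 (-0.46 to 0.29). Flt1 (VEGF receptor 1, a high-affinity receptor that also acts as a decoy) was dim, with the tested probe between -6.02 and -4.47, and the third replicates of both SHPC groups were not well above background. Its groups overlapped, and the intervals were wide, -0.24 to 1.24 for SHPCs with BM-MCs against control SHPCs and -0.57 to 1.41 for MHs against control SHPCs. The difference between MHs and SHPCs with BM-MCs was -0.08 (-1.07 to 0.91).

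Tek (Tie2, the angiopoietin receptor) varied within MHs and within SHPCs with BM-MCs. It was at 0.24 and -0.41 in MHs, at -0.75, -0.66 and -0.47 in control SHPCs, and at -0.09, -0.31 and -0.83 in SHPCs with BM-MCs. Both MH samples were above every control SHPC sample, whereas BM-MC replicate 3 was the lowest of all 8. MHs differed from control SHPCs by 0.54 (-0.08 to 1.17, adjusted p = 0.31 from limma), by 0.22 without MH replicate 1 and by 0.87 without MH replicate 2, and SHPCs with BM-MCs differed from control SHPCs by 0.22 (-0.29 to 0.73), or 0.06 to 0.43 with single samples left out, lowest without BM-MC replicate 1 and highest without BM-MC replicate 3. Between MHs and SHPCs with BM-MCs the difference was 0.33 (-0.30 to 0.95), 0.0028 without MH replicate 1, 0.65 without MH replicate 2 and 0.11 without BM-MC replicate 3.

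The last group is found on endothelium in general. Pecam1 (CD31, an adhesion molecule at endothelial junctions) was at 0.32 and 0.29 in MHs, at 0.14, 0.19 and -0.22 in control SHPCs, and at 0.12, 0.26 and -0.12 in SHPCs with BM-MCs. Both MH samples were above the others, and the SHPC groups overlapped. Differences were 0.26 between MHs and control SHPCs (-0.14 to 0.67), 0.22 between MHs and SHPCs with BM-MCs (-0.19 to 0.62) and 0.05 between the SHPC groups (-0.35 to 0.45). With single samples left out, they were in this order 0.14 to 0.34, 0.11 to 0.30 and -0.08 to 0.15.

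Vwf (von Willebrand factor, which binds platelets and carries factor VIII) gave different results with its 2 probes. The probe nearer the 5' end, A_43_P21694, was at 2.54 and 2.35 in MHs, at 2.52, 2.51 and 2.32 in control SHPCs, and at 2.05, 2.34 and 2.30 in SHPCs with BM-MCs. Its difference between MHs and control SHPCs was -0.01 (-0.34 to 0.33), and that between the SHPC groups was -0.22 (-0.53 to 0.09). The probe nearer the 3' end, A_64_P114913, was at -1.45 and -1.66 in MHs, at -0.70, -0.81 and -0.83 in control SHPCs, and at -0.32, -0.60 and -1.10 in SHPCs with BM-MCs. Both MH samples were below all 6 SHPC samples. MHs differed by -0.78 from control SHPCs (-1.29 to -0.26, adjusted p = 0.15 from limma) and by -0.88 from SHPCs with BM-MCs (-1.40 to -0.36, adjusted p = 0.23), while the brighter probe differed by 0.21 in the latter comparison (-0.13 to 0.54). The direction given for Vwf between MHs and SHPCs with BM-MCs thus depends on the probe, and against control SHPCs the size of the difference does.

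Taken within each sample, the level of the probe nearer the 3' end minus that of the other was -4.00 ± 0.01 (SD, n = 2) in MHs, -3.23 ± 0.08 (SD, n = 3) in control SHPCs and -2.91 ± 0.52 (SD, n = 3) in SHPCs with BM-MCs. This difference carries no scaling between arrays. MHs lay below both SHPC groups without overlap (2-sided exact permutation p = 0.2 against either group, the smallest that 2 samples against 3 allow). For Stab2, the brighter probe minus the other was 1.62 ± 0.04 (SD, n = 2) in MHs, 1.39 ± 0.18 (SD, n = 3) in control SHPCs and 1.67 ± 0.18 (SD, n = 3) in SHPCs with BM-MCs. Here control SHPCs were below both other groups without overlap, although control SHPC replicate 2, at 1.5380, and BM-MC replicate 1, at 1.5386, were nearly equal (exact permutation p = 0.2 against MHs and p = 0.1 against SHPCs with BM-MCs, again the smallest possible). What set the probes of a gene apart was not tested.

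**Figure D2:**
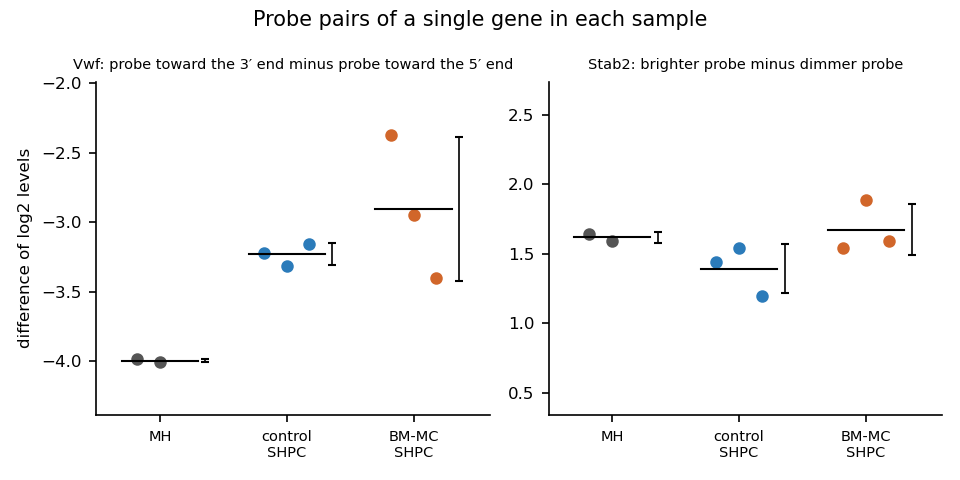
Difference between the log2 levels of the probes of Vwf (left) and of Stab2 (right) within each sample, with group means as lines and ± 1 SD as bars beside them; both vertical axes span the same number of log2 units. The 2 MH samples lie at -3.99 and -4.00 for Vwf, below the 6 SHPC samples.

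Seen over the 10 genes, each by its brightest tested probe, SHPCs with BM-MCs were above control SHPCs in the mean for 8 genes, with a median difference of 0.27 against 0.03 over the 14978 genes tested, of which 53.6% were positive. The exceptions were Lyve1 and Vwf. With single samples left out, the marker median was 0.18 to 0.39, with 7 to 8 genes positive. Limma called 0 of the 10, where 0.0216% of all probes were called higher and 0% lower. At an unadjusted p under 0.05, 4 were higher (Stab1, Stab2, Clec4g and Kdr) and 0 lower, against 10.7% and 5.92% of all probes. The same 4 genes showed no overlap between the groups, which 13.0% of all probes showed in that direction and 11.6% in the other. The methods' t-test passed 0 genes after adjustment and 1 gene (Kdr, higher) without it, where 8.11% of all probes passed as higher and 6.84% as lower. A count of 1 in 10 is near that share. Scaling arrays to their median in place of the 75th percentile lowered every difference in this comparison by 0.19 and put the median of all probes at -0.17, and the marker median at 0.08 with 6 genes positive, Fcgr2b and Pecam1 being those that turned. Within the second set of 4 arrays, the mean of the BM-MC samples exceeded control SHPC replicate 3 by 0.28 for Stab1, 0.22 for Stab2, 0.25 for Clec4g and 0.14 for Kdr, each less than the pooled difference. The first set held no BM-MC sample.

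Compared with control SHPCs, MHs were likewise higher in the mean for 8 genes, the exceptions again being Lyve1 and Vwf, the latter by -0.01. Both comparisons use the same control SHPC samples and are not independent. The median difference was 0.36 against 0.06 over all genes, of which 57.3% were positive. Limma called 0 of the 10 genes, where 0.216% of all probes were called higher and 0.917% lower. At an unadjusted p under 0.05, 3 were higher (Stab1, Stab2 and Fcgr2b) and 0 lower, against 11.0% and 8.21% of all probes. The second Vwf probe, left out of this count, was lower (unadjusted p = 0.0092 from limma). Both MH samples were above all control SHPC samples for 5 genes (Stab1, Stab2, Fcgr2b, Tek and Pecam1), where 22.6% of all probes showed that order and 18.7% the opposite one. The methods' t-test passed 0 genes after adjustment and 1 gene (Fcgr2b, higher) without it, where 9.39% of all probes passed as higher and 8.09% as lower, again near the share of the markers. Within the first set of arrays, MHs exceeded control SHPC replicates 1 and 2 by 0.79 for Stab1, 0.55 for Stab2, 0.62 for Tek, 0.29 for Fcgr2b and 0.14 for Pecam1, the last being lower than the pooled 0.26. Clec4g, whose groups overlapped, differed by 1.07 there, and the second Vwf probe by -0.80. The second set held no MH sample.

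Between MHs and SHPCs with BM-MCs no interval of the 10 genes, each by its brightest tested probe, excluded 0. That of the second Vwf probe did (-1.40 to -0.36), and this probe is left out of the counts below. The mean was higher in MHs for 7 genes, Clec4g, Kdr and Flt1 being the others, with a median difference of 0.06 against 0.02 over all genes, of which 52.6% were positive. Single samples moved this median, which was -0.0047 without MH replicate 1, 0.22 without MH replicate 2, 0.17 without BM-MC replicate 2 and -0.0026 without BM-MC replicate 3, with 5 to 8 genes positive. Limma called 0 of the 10 genes, where 0.0173% of all probes were called higher and 0.320% lower. No gene reached an unadjusted p under 0.05, against 5.95% and 7.33% of all probes, and the methods' t-test passed 0 genes with or without adjustment, where 4.87% and 4.38% of all probes passed without it. MH samples were all above the BM-MC samples for Fcgr2b, Pecam1 and the brighter Vwf probe and all below them for Clec4g, where 16.2% and 15.9% of all probes showed these orders. No set of arrays held both groups. Scaling arrays to their median raised every difference in this comparison by 0.20, which put the marker median at 0.26 and the median of all probes at 0.20.

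**Figure D3:**
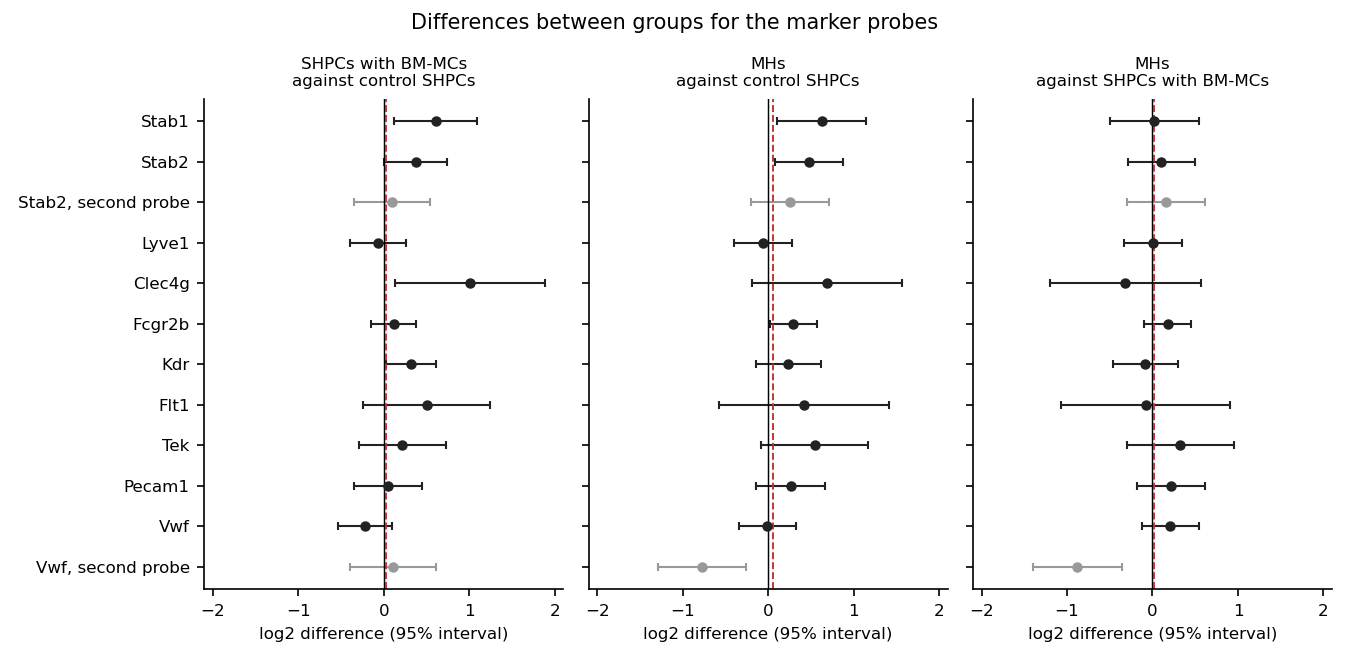
Log2 differences between groups (horizontal axis) with 95% intervals from limma, not adjusted for the number of probes, for the 12 tested marker probes; grey marks are the second probes of Stab2 and Vwf, and the dashed line is the median over all genes tested. In the comparison of SHPCs with BM-MCs against control SHPCs, Clec4g lies farthest from 0 at 1.01, and in both comparisons of MHs the second Vwf probe does, at -0.78 and -0.88.

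Single samples differed in how they ranked. MH replicate 1 had the highest level for 7 of the 10 genes, and control SHPC replicate 1 had the lowest for 4. The summed level of the 10 markers, in multiples of the array's 75th percentile, was 20.7 to 24.9 in MHs, 19.4 to 20.7 in control SHPCs and 20.7 to 22.5 in SHPCs with BM-MCs. Kdr and the brighter Vwf probe weigh most in this sum. The mean log2 level of the markers was -0.30 to -0.02 in MHs and -0.59 to -0.36 in control SHPCs. It was -0.40 to -0.13 in SHPCs with BM-MCs. Without MH replicate 1, the median difference between MHs and control SHPCs was 0.23, and without MH replicate 2 it was 0.52.

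A wider list of 47 other endothelial genes was described beside the markers, led by Ctsl (4.77 to 5.50) and Prox1 (4.33 to 5.44). Whether other cells of the sections also express these genes was not tested. All 47 were on the array and 41 were tested, while Bmp6, Cd34, Cldn5, Sele, Sox17 and Wnt9b were too dim. In MHs against control SHPCs, 37 were higher in the mean with a median of 0.37, 12 were higher and 0 lower at an unadjusted p under 0.05, and Rspo3 was called. Over all features, 57.3% of genes were positive, 11.0% of probes were higher and 8.21% lower at that p, and 0.216% were called higher. Rspo3 (R-spondin 3, an enhancer of Wnt signalling made by endothelium of the central vein) was at -1.92 and -1.61 in MHs, at -3.46, -3.76 and -3.35 in control SHPCs, and at -2.29, -2.63 and -3.10 in SHPCs with BM-MCs. The groups did not overlap, with SHPCs with BM-MCs in between. Rspo3 was higher in MHs than in control SHPCs by 1.76 (standard error 0.25, adjusted p = 0.024 from limma), and by 1.85 within the first set of arrays. It passed in 16 of 24 alternative settings, with an adjusted p from 0.00671 to 0.155. It did not pass without MH replicate 1 or 2 (adjusted p = 0.12 and 0.134 from limma), control SHPC replicate 1 or 2 (adjusted p = 0.0906 and 0.0939) or BM-MC replicate 2 (adjusted p = 0.0556), nor without the filter on dim probes, with the replicate block or in the methods' t-test after adjustment. Between the SHPC groups the difference in Rspo3 was 0.85 (0.30 to 1.41, adjusted p = 0.19), and between MHs and SHPCs with BM-MCs it was 0.91 (0.33 to 1.50, adjusted p = 0.26).

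**Figure D4:**
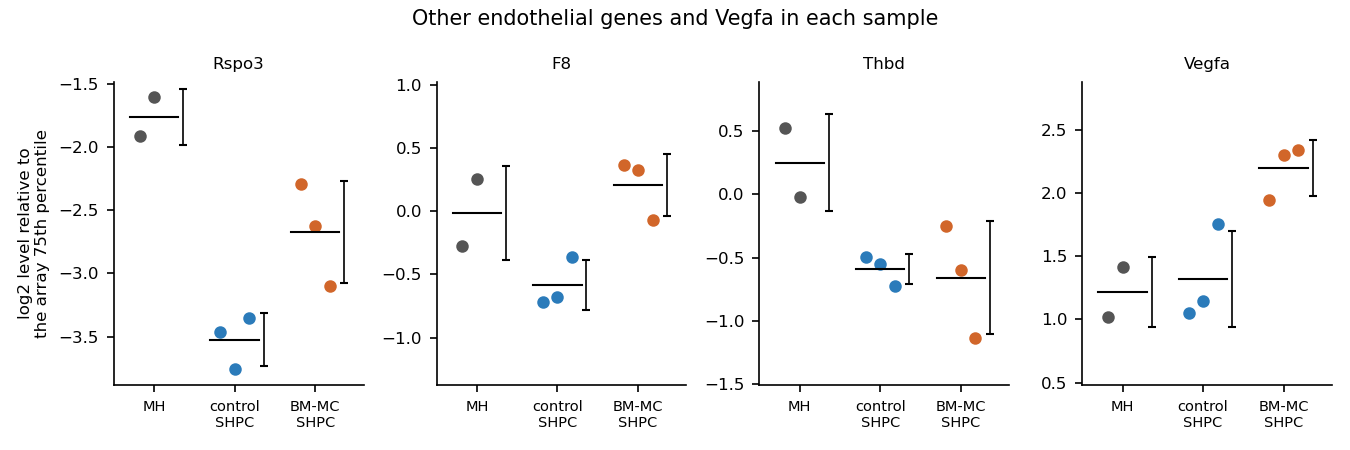
Log2 levels of Rspo3, F8, Thbd and Vegfa in each sample (vertical axis, relative to the 75th percentile of the array; every panel spans the same number of log2 units), with group means as lines and ± 1 SD as bars beside them. Rspo3 lies between -1.92 and -1.61 in MHs and between -3.76 and -3.35 in control SHPCs, and Vegfa is highest in the 3 BM-MC samples.

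In SHPCs with BM-MCs against control SHPCs, 32 of the 41 other endothelial genes were higher in the mean, with a median of 0.19, 9 were higher and 0 lower at an unadjusted p under 0.05, and 0 were called. Over all features, 53.6% of genes were positive, and 10.7% of probes were higher and 5.92% lower at that p. The lowest p was that of F8 (coagulation factor VIII, made by sinusoidal endothelium), which was at -0.28 and 0.25 in MHs, at -0.72, -0.68 and -0.36 in control SHPCs, and at 0.37, 0.33 and -0.07 in SHPCs with BM-MCs. The BM-MC samples were all above the control SHPC samples, by 0.79 in the mean (0.38 to 1.21, adjusted p = 0.15 from limma). With array weights F8 passed (0.91, adjusted p = 0.0466 from limma), in a fit that called 1.41% of all probes in place of 0.0216%. Without control SHPC replicate 3, limma called 2.29% of all probes, and 2 genes of this list and the ligands together. Meis2 (a homeobox transcription factor) differed by 1.41 (0.66 to 2.15, adjusted p = 0.15) but was dim, being well above background in 1 of 3 control SHPC samples. In MHs against SHPCs with BM-MCs, 27 of the 41 were higher in the mean, with a median of 0.14 and 0 called. At an unadjusted p under 0.05, 4 were higher and 2 lower, against 5.95% and 7.33% of all probes. There Thbd (thrombomodulin, an anticoagulant receptor) differed by 0.91 (0.27 to 1.55, adjusted p = 0.28), with MHs at 0.52 and -0.02 above BM-MC samples at -0.25, -0.59 and -1.14.

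Of 9 ligands that act on endothelium 7 were tested, while Angpt2 and Pgf were too dim, and 0 were called in any comparison. Vegfa, the ligand of Kdr and Flt1, was at 1.02 and 1.41 in MHs, at 1.05, 1.15 and 1.76 in control SHPCs, and at 1.94, 2.30 and 2.34 in SHPCs with BM-MCs. The BM-MC samples were above all others. Vegfa differed by 0.88 between the SHPC groups (0.34 to 1.41, adjusted p = 0.18 from limma), by 0.44 against control SHPC replicate 3 alone within the second set, and by 1.09 without that sample (adjusted p = 0.044), where the share of all probes called rose as given for F8. Between MHs and SHPCs with BM-MCs it differed by -0.98 (-1.56 to -0.40, adjusted p = 0.23 from limma). The other Vegfa probes gave 0.57 and 1.03 between the SHPC groups (adjusted p = 0.31 and 0.20 from limma). They gave -0.85 and -1.06 between MHs and SHPCs with BM-MCs (adjusted p = 0.29 for both). Vegfd, a ligand of VEGF receptors, was dim but well above background on every array with marks for it. It was at -5.53 and -5.46 in MHs, at -4.58, -4.44 and -4.40 in control SHPCs, and at -3.46, -3.82 and -4.88 in SHPCs with BM-MCs. Vegfd differed by -1.02 between MHs and control SHPCs (-1.88 to -0.16, adjusted p = 0.21 from limma) and by -1.44 between MHs and SHPCs with BM-MCs (-2.30 to -0.58, adjusted p = 0.23). Without BM-MC replicate 3, Vegfd had an adjusted p = 0.029 and 0.031 from limma in these comparisons, where 2.26% and 0.333% of all probes were called. With MHs and control SHPCs alone in the fit, its adjusted p was 0.0351, in a fit that called 1.25% of all probes. Apln (apelin, a peptide ligand of an endothelial receptor) differed by -0.81 between MHs and control SHPCs (-1.51 to -0.11, adjusted p = 0.22) and by -0.54 between the SHPC groups (-1.08 to 0.0048, adjusted p = 0.30). The former was -0.42 without MH replicate 1 and -1.21 without MH replicate 2. The other Apln probe, dimmer at a mean level of -5.44, gave -1.69 between MHs and control SHPCs (adjusted p = 0.0623 from limma).

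Markers of other cells that share the sinusoid were read on the same arrays. Of 12 Kupffer cell genes, 11 were higher in the mean in MHs than in control SHPCs, against 57.3% of all genes, with a median difference of 0.60. Of the 12, 7 were higher at an unadjusted p under 0.05, against 11.0% of all probes, 7 were higher without overlap, against 22.6%, and 0 were called. Their summed level was 96.5 to 100.4 in MHs, 49.4 to 71.9 in control SHPCs and 61.5 to 86.8 in SHPCs with BM-MCs. The brightest were Clec4f, between 4.19 and 5.36, and C1qb, between 3.83 and 4.91. In MHs against SHPCs with BM-MCs, 11 of the 12 were higher, with a median of 0.43, where the median of the endothelial markers was 0.06. The direction was that of most endothelial markers in MHs against control SHPCs, and the part of Kupffer cells in the marker differences was not tested. In SHPCs with BM-MCs against control SHPCs, 8 of the 12 were higher, with a median of 0.15. Of 10 tested stellate cell genes, the brightest being Col3a1 (1.23 to 1.74) and Lrat (-0.27 to 0.68), 5 were higher in MHs than in control SHPCs, and Rgs5 (a regulator of G-protein signalling in pericytes) was called, with a difference of 1.09 (standard error 0.17, adjusted p = 0.034 from limma) that passed in 10 of 24 alternative settings. With single samples left out, Rgs5 passed without BM-MC replicate 3 (adjusted p = 0.0126) and not without any other sample (adjusted p from 0.0508 to 0.156), and it did not pass with the replicate block (adjusted p = 0.0869). The other Rgs5 probe differed by 1.09 between MHs and control SHPCs (adjusted p = 0.18 from limma). Over all probes, 0.216% were called higher there. Of the 10 stellate cell genes, 3 were higher and 3 lower at an unadjusted p under 0.05, against 11.0% and 8.21% of all probes. The summed level of these genes was 6.23 to 6.65 in MHs, 4.87 to 5.35 in control SHPCs and 4.64 to 7.12 in SHPCs with BM-MCs. Their mean log2 level overlapped (-2.41 to -1.88 in MHs and -2.50 to -2.07 in control SHPCs), and the median difference between these groups was -0.05. The summed level of 12 hepatocyte genes was 962 to 976 in MHs, 990 to 1181 in control SHPCs and 880 to 1119 in SHPCs with BM-MCs. Of these genes, 11 had a lower mean in MHs than in control SHPCs (median -0.20), 10 in MHs than in SHPCs with BM-MCs (median -0.11) and 10 with BM-MCs among the SHPC groups (median -0.11), with 0 called. Of the remaining lists limma called 0 genes in any comparison. The 5 biliary genes tested were led by Sox9 (-2.92 to -1.42) and Epcam (-3.84 to -2.52), and the 5 platelet and megakaryocyte genes by Itga2b (-4.08 to -2.98) and Pf4 (-4.00 to -3.33). The 4 leukocyte genes were led by Ptprc (-1.49 to -0.52) and S100a9 (-2.73 to -0.30), and the 3 erythroid genes by Hbb (-1.93 to 1.28) and Alas2 (-4.16 to -1.41). In MHs against control SHPCs, all 5 platelet and megakaryocyte genes had a higher mean, with a median of 0.35, as did 1 of 5 biliary, 2 of 4 leukocyte and 0 of 3 erythroid genes. At an unadjusted p under 0.05 there, Itga2b (0.66) and Itgam (0.56) were higher and Krt19 (-1.76) lower of the 17 genes of these lists, against 11.0% and 8.21% of all probes. In the SHPC comparison, 5 of the 17 genes had a lower mean with BM-MCs and 1 a higher mean at an unadjusted p under 0.05, against 5.92% and 10.7% of all probes, and those named here for either comparison were chosen after their values were seen. The lower ones were S100a9 (-1.84, adjusted p = 0.0676 from limma), S100a8 (-1.46), Hbb (-1.64), Epcam (-0.43) and Pf4 (-0.35), and the higher one was Gp9 (0.48). Control SHPC replicate 3 stood apart in the summed erythroid level, at 2.90 against 0.80 and 0.71 in the other control SHPC samples. Their part in the marker differences was not tested.

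**Figure D5:**
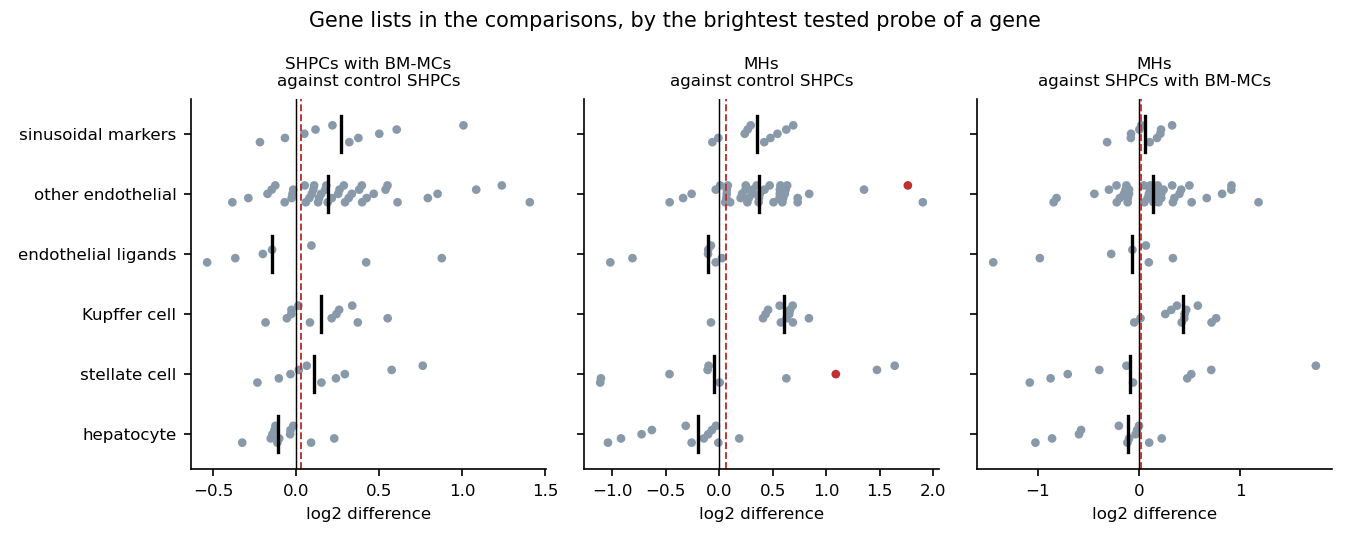
Log2 differences (horizontal axis) of the genes of 6 lists in the 3 comparisons, each gene by its brightest tested probe; black bars are list medians, red points passed an adjusted p of 0.05 and the dashed line is the median over all genes tested. The sinusoidal markers have medians of 0.27, 0.36 and 0.06, and the red points are Rspo3 and Rgs5.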

How the data were processed

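Gene expression was measured in 8 rat liver samples, grouped by the cell type and transplantation that their labels give. The authors deposited scanner files and a value table, both holding the processed signal, an intensity corrected for background by Agilent Feature Extraction 10.7 (named in the submitters' processing notes) and not scaled among arrays. The table was used for all samples because the file of control SHPC replicate 2 covers 20903 of 62976 features. The background marks of that file took no part in the filter.

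Deposited values were put on the log2 scale and centred on each array's 75th percentile. Outlier spots were left out and spots of a probe averaged. The filter kept 23111 probes that were well above background on 3 or more of the other 7 arrays. They were fitted with limma 3.58.1 (R 4.3.3), adjusted by Benjamini-Hochberg over all probes and called at 0.05. The SHPC groups were fitted on their 6 samples alone, and comparisons with MHs on all 8. Intervals cover 95%. A gene was given by its brightest tested probe. Symbols came from the array design, updated through RefSeq gene tables, and the number of arrays limits the precision.

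All 10 markers are named. Of the other endothelial genes and ligands, up to 4 genes a direction that passed are named in each comparison, or the 2 a direction with the lowest p where none did. Of lists of other cells, the 2 brightest genes are named and any that passed. Vegfa and Rspo3 are also given between the SHPC groups, chosen after their values were seen. 1 gene that this rule names is not reported here. Members and lists were chosen with earlier results of these data known. The fit was tested on simulated data. Alternatives varied the scaling, background correction, filters, probe rule, fit, blocks and samples, and included the plain t-test of the methods. Python 3.11.15, pandas 2.3.3 and matplotlib 3.10.9 were used for reading and drawing.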

Additional observations from a re-analysis of the deposited data

How the results depend on the processing

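Limma called 0 of the 10 markers under every alternative run. The methods' t-test without adjustment passed 1 marker between the SHPC groups (Kdr) and 1 between MHs and control SHPCs (Fcgr2b), and the second Vwf probe in the latter, where 8.11% and 9.39% of all probes passed as higher, and 8.09% as lower in the latter. Of 831 alternative values of 36 marker differences, 778 kept direction and call, and 50 changed sign. The cause was not tested. Between the SHPC groups, signs changed with median scaling for Fcgr2b (-0.0759), Pecam1 (-0.1434) and the second probes of Stab2 (-0.0983) and Vwf (-0.0873), with array weights for Lyve1 (0.008) and Pecam1 (-0.014), with the slide set as a block for the second Stab2 probe (-0.2545), and with normexp on 7 arrays for Flt1 (-0.012) and the second Stab2 probe (-0.0021). Between MHs and control SHPCs, they changed with quantile normalization for Vwf (0.0165), without scaling for Lyve1 (0.0223) and Vwf (0.0782), with array weights for Lyve1 (3e-04), with the slide set for Lyve1 (0.038) and with normexp for Vwf (0.0263). Between MHs and SHPCs with BM-MCs, they changed with median scaling for Flt1 (0.1181) and Kdr (0.116), with quantile normalization for Flt1 (0.1512) and Lyve1 (-0.0148), without scaling for Flt1 (6e-04), with array weights for Lyve1 (-0.0055), with the slide set for Clec4g (0.8161), Flt1 (0.0828), Kdr (0.1909) and Pecam1 (-0.1677), with normexp for Flt1 (0.1325), Lyve1 (-0.0381) and Stab1 (-0.0257), and with the median over probes for Vwf (-0.3351). Leaving out single samples gave ranges across 0 between the SHPC groups for Lyve1 (-0.1393 to 0.0352), Pecam1 (-0.08 to 0.1503) and the second probes of Stab2 (-0.0336 to 0.267) and Vwf (-0.0742 to 0.3181), between MHs and control SHPCs for Flt1 (-0.1746 to 1.0135), Lyve1 (-0.1365 to 0.038) and Vwf (-0.1059 to 0.0863), and between MHs and SHPCs with BM-MCs for Flt1 (-0.674 to 0.5141), Kdr (-0.2859 to 0.1218), Lyve1 (-0.0468 to 0.0648), Stab1 (-0.127 to 0.1688) and Stab2 (-0.0122 to 0.2201). Deviations of same-numbered samples correlated at 0.133, 0.0779 and 0.171 between the SHPC groups and at -0.129 to 0.0506 in pairs with MHs. Samples of unlike number were not compared, so these values cannot decide whether the numbers pair samples. The main fit took the samples as unpaired. With the replicate block, limma called 0 markers, and over all probes 0, 159 and 0 in place of 5, 262 and 78 in the order above. With single samples left out, all probes called ranged over 0 to 530, 55 to 523 and 0 to 115.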
